A study of Mus musculus with 232 samples.

Results

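The genes described here carry the signal of leukaemia inhibitory factor (LIF) through STAT3 in mouse embryonic stem cells (ESCs). They were taken by name as listed members of the pathway, with no measured value in the rule, and comprised 9 of the 42493 genes in the deposited tables: the receptor chains Lifr and Il6st, the kinase Jak1, the transcription factor Stat3, the STAT3 targets Socs3, Pim1, Pim3 and Gbx2, and Pias3, an inhibitor of STAT3. All 9 were found, and 8 of them had a mean count of at least 5 over all cells, the filter that 11178 genes passed. Gbx2, with a mean count of 4.26, did not pass and its values are given without entering any count.

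RNA of single cells was sequenced 24 h after transfection. Mock Dgcr8-/- cells lacked Dgcr8, which is needed to process most miRNAs, and received transfection reagent without a mimic. The miR-294 and let-7 cells were Dgcr8-/- cells transfected with a mimic of one miRNA, and the wild-type (WT) cells, titled V6.5, had no mimic named in their labels. Every condition was grown in DMEM with 15% FBS, LIF and the inhibitors PD0325901 and CHIR99021 (2i), so LIF was supplied to all cells and its withdrawal was not examined. The let-7 mimic is called let-7i in the sample titles, let-7b in the series description and let-7c in the study's text.

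LIF binds LIFR, which then pairs with GP130, the product of Il6st. The kinase JAK1, bound to the receptor tails, phosphorylates STAT3, and phosphorylated STAT3 enters the nucleus and activates genes that help mouse ESCs to self-renew. SOCS3 is made in response and shuts the receptor and JAK down, while PIAS3 binds active STAT3 and blocks its binding to DNA. Transcript levels carry no information on phosphorylation.

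The mature miRNAs are shown because a miRNA finds its targets mainly through its seed (bases 2 to 8, in capitals), and because the mimics named for let-7 share theirs. The sequences are those of RefSeq (GRCm38.p6), 5′ to 3′.
miR-294-3p, chr7:3220691-3220712, plus strand: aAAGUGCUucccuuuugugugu
let-7b-5p, chr15:85707325-85707346, plus strand: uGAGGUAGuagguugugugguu
let-7c-5p, chr15:85706616-85706637 and chr16:77599672-77599693, plus strand: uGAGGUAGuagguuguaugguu
let-7i-5p, chr10:122985698-122985719, minus strand: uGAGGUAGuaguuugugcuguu

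The reverse complements of the seeds, AGCACTT for miR-294 and CTACCTC for let-7, were searched on the transcript strand of the 3′ UTRs (longest per gene, Gencode M21 on GRCm38). Of 10297 genes past the filter with a 3′ UTR, 18.2% held AGCACTT and 10.6% held CTACCTC, with a median 3′ UTR of 1199 bases. Among the 9 genes, Il6st alone held AGCACTT, at base 845 of its 5641-base 3′ UTR, and Stat3 alone held CTACCTC, at base 78 of 3701. Both UTRs are longer than that median, and the shares were not adjusted for length. The matches are shown with the bases around them, the match in capitals.
Il6st, exonic 3′ UTR, chr13:112505279-112505307, plus strand: ctggttgaggaAGCACTTtatccagaatg
Stat3, exonic 3′ UTR, chr11:100888704-100888732, minus strand: ctcggagtgtgCTACCTCccccatgtgag
Il6st was also the only one of the 9 genes on the list of 495 miR-294 targets that the study took from earlier arrays, and none was on its list of 171 let-7c targets.

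The 232 deposited runs came from 182 cells, and repeat runs were added together. In 4 pairs of cells (3 of let-7 and 1 of miR-294 cells) the profiles differed no more than repeat runs of a cell did, with a chi-square per gene of 1.82 to 5.42 against 1.27 to 6.19 for 48 cells sequenced again. Each pair was therefore counted as 1 cell, which left 16 WT, 60 mock, 57 miR-294 and 45 let-7 cells. In 1 let-7 and 1 WT cell the repeat runs did not match each other, and without these cells Socs3 in mock over WT moved from 1.96 to 2.28 on the log2 scale and none of the 9 genes crossed 2-fold. A cell held 513521 to 3979274 counts, and conditions had a median of 7734 to 8022 genes per cell. All 8 ESC markers were counted in every condition, whereas markers of fibroblasts and of endoderm had a median of 0 in each. The study's listed targets were lower in the cells that received the mimic, with a median log2 ratio to mock of -0.96 over 494 miR-294 targets and -0.94 over 169 let-7c targets. The study had left out mimic cells in which these listed targets were not lower. The medians, and the level of Il6st as a listed target, are therefore not independent of that selection. Dgcr8 had a mean of 118 normalized counts in WT, 51.5 in mock, 67.6 in miR-294 and 41.2 in let-7 cells; a count over the whole gene includes the exons outside a deletion.

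Each condition was loaded on a single C1 circuit and the labels name no separate cultures, so a condition is 1 sample, chip and condition cannot be told apart, and no test between conditions was possible. The level of a gene was the mean over cells of its count divided by the DESeq size factor of the cell, and spreads are between cells of 1 sample. A fold was the ratio of the mean levels, and 2-fold or more was the size counted. Intervals on summed counts (exact Poisson) and on shares of cells (exact Clopper-Pearson), both at 95%, cover counting error only, without molecular identifiers.

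**Figure D1:**
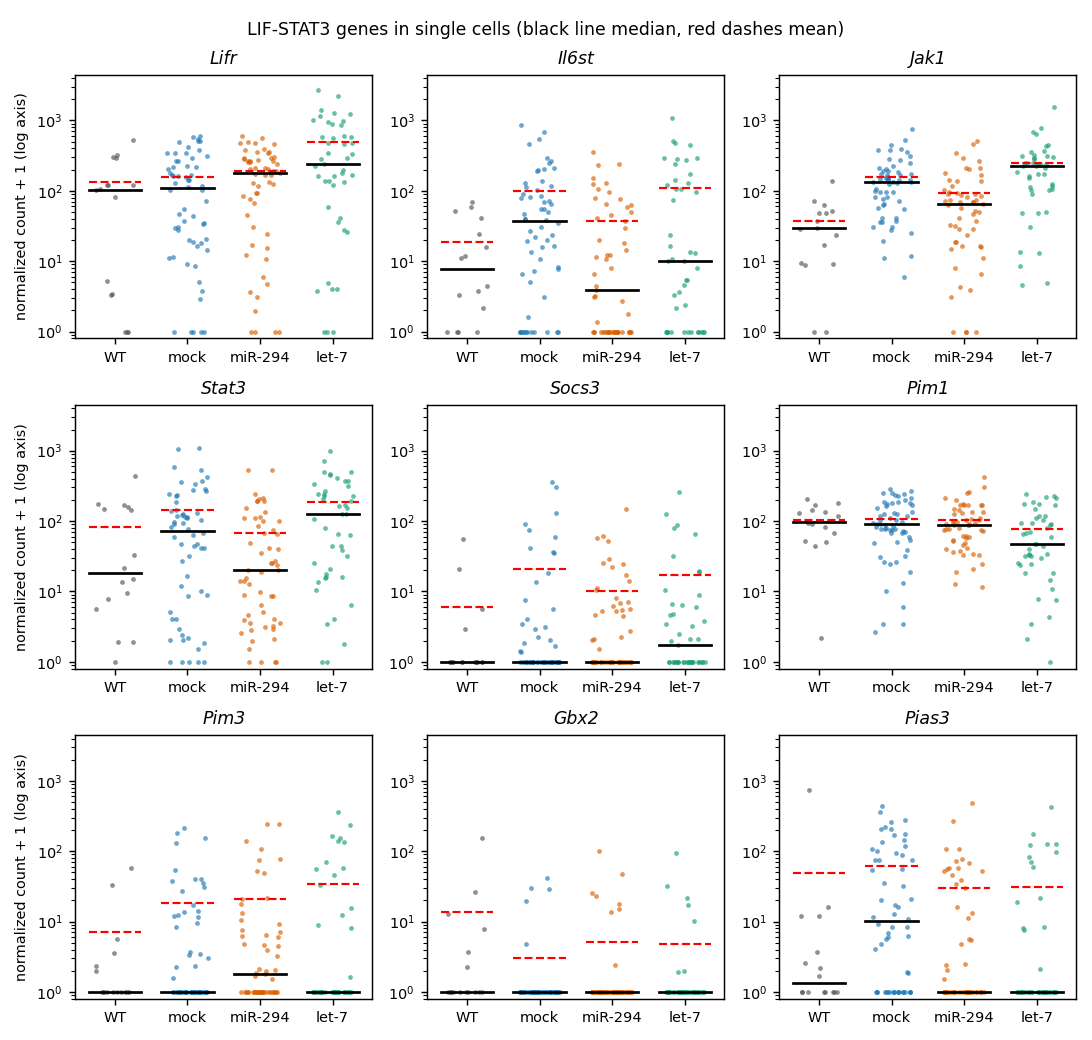
Normalized counts plus 1 (log axis) of the 9 genes, with each cell as a point, for 16 WT, 60 mock, 57 miR-294 and 45 let-7 cells. The black line is the median and the red dashes the mean; the conditions overlap for every gene, and the let-7 cells reach highest for Lifr (2707).

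Within a condition the genes were set in order by FPKM, which is per length. In mock cells, Pim1 had the highest mean at 27.9 FPKM, followed by Stat3 at 26.3 and Jak1 at 25.6. Pias3 had 16.8, Lifr 12.3 and Il6st 11.01 FPKM. Socs3 (5.12), Pim3 (4.81) and Gbx2 (1.12) were lowest. The spread of FPKM between cells was not computed, so the order of neighbours was not weighed against it. In normalized counts, which are not per length, the SD between cells was 75.4 around a mean of 106 for Pim1 and 221 around 144 for Stat3.

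Pim1 and Jak1 were counted in all 60 mock cells, whereas the targets Socs3 and Pim3 were seen in 23 and 26 of them. A cell held a median of 6 of the 9 genes in each condition. Counts of both receptor chains, Jak1 and Stat3 together were found in 8 of 16 WT, 41 of 60 mock, 28 of 57 miR-294 and 28 of 45 let-7 cells. A zero in a single cell can be a transcript that was not captured, so these are shares of cells with a count and not of cells that express the gene.

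**Figure D2:**
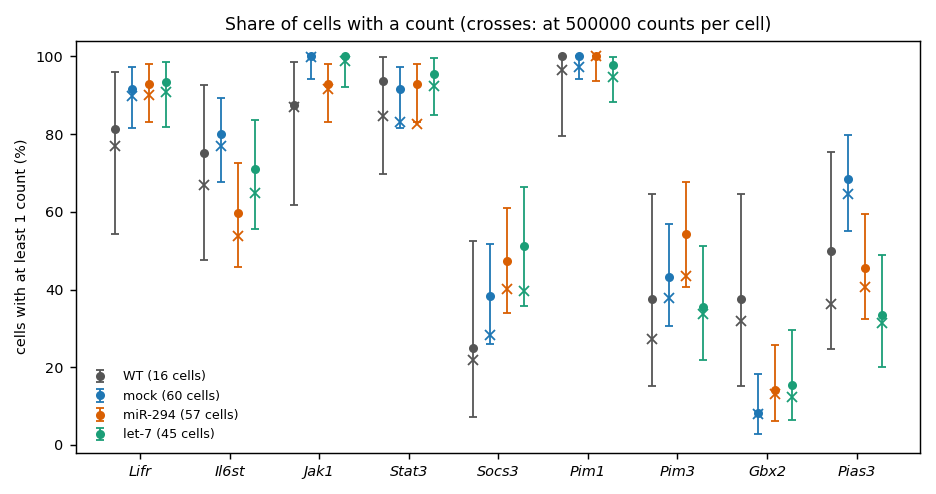
Share of cells with at least 1 count (circles, %), with exact 95% binomial intervals, and the share expected with every cell thinned to 500000 counts (crosses), for 16 WT, 60 mock, 57 miR-294 and 45 let-7 cells. Pim1 is near 100% throughout, Il6st is lowest in miR-294 cells (59.6%), Pias3 is lowest in let-7 cells (33.3%) and Gbx2 is highest in WT cells (37.5%).

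For miR-294 against mock, which asks how one miRNA of the family abundant in ESCs alters the transcripts of Dgcr8-/- cells, 4 of the 8 genes past the filter were lower by 2-fold or more and 0 were higher. Over all genes, 20.6% were lower and 5.77% higher by this rule. The 4 were Il6st, Stat3, Socs3 and Pias3, and their log2 ratios lay between -1.42 and -1.06. The median log2 ratio was -0.93 for the 8 genes and -0.28 for all genes. The number lower depended on the scaling. With CPM (counts scaled to the same total in each cell) Il6st was the 1 gene of the 8 still lower by 2-fold, as it was with FPKM, and with TMM factors 2 were lower. Of all genes, 15.7% were lower with CPM, 15.5% with FPKM and 16.8% with TMM factors. With CPM the median over all genes was -0.08, and 1757 genes were lower and 860 higher, against 2303 and 645.

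Il6st, the signalling chain shared by the receptors of the LIF and IL-6 family, had a mean of 97.6 normalized counts in mock cells (lowest 0, median 36.1, highest 854) and 36.5 in miR-294 cells (0, 2.93 and 351). The cells overlapped widely, and 4 mock cells lay above the highest miR-294 cell. The mean was 2.67-fold lower with miR-294 (log2 -1.42), and a miR-294 cell was the higher of a pair in 33.9% of all pairs of a miR-294 with a mock cell, ties split evenly. Its counts summed to 6425 in mock (interval 6269 to 6584) and 2409 in miR-294 cells (2314 to 2507). Cells with a count made up 80% in mock (interval 67.7% to 89.2%) and 59.6% in miR-294 (45.8% to 72.4%), and 76.98% and 53.7% at 500000 counts per cell. Il6st was past 2-fold under each of the 10 other ways of computing the ratio, with log2 values of -1.77 to -1.17. In each comparison, at least 1 of the 10 changed only cells of conditions outside it and so could hardly move its ratios. It is on the target list by which the study selected its miR-294 cells. Whether miR-294 acts on the seed match shown above was not tested.

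Lifr, the chain that binds LIF, was on the other side. Its mean was 157 normalized counts in mock cells (lowest 0, median 108, highest 594) and 191 in miR-294 cells (0, 178 and 611). The ranges were nearly the same, and 1 miR-294 cell lay above the highest mock cell. The log2 ratio was 0.28, within 2-fold, so the receptor chains of the pathway stood apart by their ratios in this comparison.

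Jak1, the kinase on the receptor, had a mean of 157 in mock cells (lowest 5.04, median 133, highest 750) and 90.95 in miR-294 cells (0, 64.3 and 513). The miR-294 cells were mostly lower, and 7 of them lay below the lowest mock cell. The log2 ratio was -0.79, within 2-fold, and a miR-294 cell was the higher in 30.8% of pairs, fewer than for Il6st. With the mean of log2 values over cells in place of the log2 of the mean it was -1.35.

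Stat3, the transcription factor at the end of the relay, had a mean of 144 in mock cells (lowest 0, median 70.4, highest 1107) and 67.1 in miR-294 cells (0, 19.3 and 528). Cells with many and with few counts occurred in both conditions, and 4 mock cells exceeded every miR-294 cell. The mean was 2.14-fold lower (log2 -1.10), close to the threshold, and only 6 of the 10 other computations placed it past 2-fold, CPM, TMM factors and FPKM not among them. The share of cells with a count was 91.7% in mock and 93.0% in miR-294 cells, so the lower mean lay in the counts per cell and not in the cells with a count.

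Socs3, the feedback inhibitor, was sparse. It had a mean of 19.7 in mock cells and 9.02 in miR-294 cells, a median of 0 in both, and a highest cell of 358 and 147. The mean was 2.18-fold lower (log2 -1.12), yet a count was seen in 38.3% of mock and 47.4% of miR-294 cells, in the other direction. The highest mock cell alone held 30.4% of the sum, 2 mock cells lay above all miR-294 cells, and the mean of log2 values gave 0.17. With CPM and with FPKM the log2 ratio was -0.86 and -0.85, within 2-fold. The direction of Socs3 thus depended on the few cells with many counts.

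The PIM kinases, survival kinases induced through STAT3, kept near their mock levels. Pim1 had a mean of 106 in mock cells (lowest 1.66, median 88.8, highest 284) and 103.6 in miR-294 cells (10.5, 87.9 and 417). Its log2 ratio was -0.04 with a range of -0.08 to 0.17 over the other computations, so its sign was not determined. Pim3 had means of 17.4 and 19.6 with highest cells of 215 and 244, and a log2 ratio of 0.17.

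Pias3, the inhibitor of DNA binding by STAT3, had a mean of 60.6 in mock cells (lowest 0, median 9.13, highest 442) and 28.98 in miR-294 cells (0, 0 and 490). The ranges overlapped, and the highest cell was a miR-294 cell. The mean was 2.09-fold lower (log2 -1.06) and 6 of the 10 other computations were past 2-fold. Cells with a count made up 68.3% in mock (interval 55.04% to 79.7%) and 45.6% in miR-294 (32.4% to 59.3%). Gbx2, a homeobox gene that STAT3 induces, had counts in 5 of 60 mock cells and 8 of 57 miR-294 cells, with means of 2.02 and 4.14 that are too sparse to compare.

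**Figure D3:**
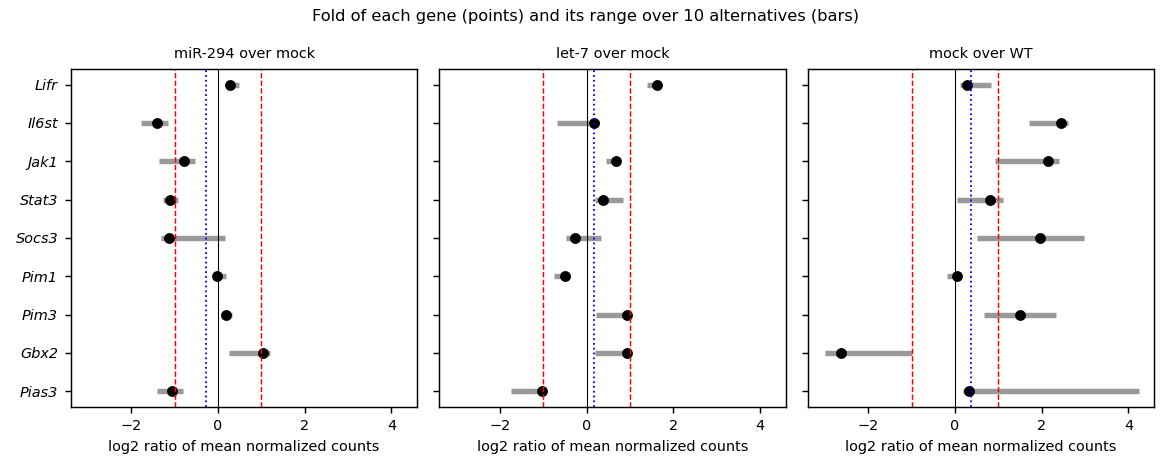
The log2 ratio of mean normalized counts for each gene (points) and its range over 10 other computations (bars), with miR-294 over mock at left, let-7 over mock in the middle and mock over WT at right; the blue dots mark the median of all genes and the red dashes 2-fold. Il6st lies below -1 over its whole range with miR-294, and Lifr above 1 with let-7; Pias3 in mock over WT reaches 4.24 without the highest cell of each condition, and Gbx2 did not pass the filter.

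For let-7 against mock, 1 of the 8 genes was lower by 2-fold or more and 1 was higher. Over all genes, 9.2% were lower and 18.4% higher. The median log2 ratio was 0.27 for the 8 genes and 0.18 for all genes. The comparison shares its mock cells with that of miR-294, so both draw on the same mock values.

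Lifr was the gene that was higher. The mock cells reached 594 with a median of 108, whereas the let-7 cells had a mean of 486 (lowest 0, median 241, highest 2707). The let-7 cells were spread more widely, and 12 of the 45 lay above the highest mock cell. The mean was 3.09-fold higher (log2 1.63), and a let-7 cell was the higher in 67.2% of pairs. Its counts summed to 12279 in 60 mock cells (interval 12063 to 12498) and 22559 in 45 let-7 cells (22266 to 22855), and cells with a count made up 91.7% and 93.3%. All 10 other computations kept Lifr past 2-fold, from 1.38 to 1.65. Lifr has no match to the let-7 seed in its 6320-base 3′ UTR.

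Il6st, its partner, did not follow. The let-7 cells had a mean of 110 (lowest 0, median 9.07, highest 1093) against the mock mean of 97.6 and median of 36.1, so their mean was higher and their median lower. The log2 ratio was 0.18, and -0.67 with the mean of log2 values. A count of Il6st was found in 71.1% of let-7 cells (interval 55.7% to 83.6%).

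Jak1 and Stat3 were somewhat higher but within 2-fold. Jak1 had a mean of 250 in let-7 cells (lowest 3.66, median 221, highest 1572) and a log2 ratio of 0.67. Stat3 had a mean of 186 (0, 125 and 986) and a log2 ratio of 0.37. For each of these genes the medians lay on the same side as the means, and the ranges of let-7 and mock cells overlapped. Stat3 is the only one of the 9 with a match to the let-7 seed, and whether let-7 acts on that match was not tested.

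Among the targets, Pim1 had a mean of 75.6 in let-7 cells (lowest 0, median 45.7, highest 242) and a log2 ratio of -0.49. In all, 4 mock cells lay above every let-7 cell. Pim3 had a mean of 33.1 (log2 0.93), although fewer let-7 cells (35.6%) than mock cells (43.3%) had a count. Socs3 had a mean of 16.3 and a log2 ratio of -0.27, and 0.32 with the mean of log2 values. Gbx2 was counted in 7 of 45 let-7 cells, with a mean of 3.83.

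Pias3 was the gene that was lower. Its mean was 29.8 in let-7 cells (lowest 0, median 0, highest 426), which was 2.03-fold lower than in mock (log2 -1.02). A count was seen in 33.3% of let-7 cells (interval 20% to 48.95%) against 68.3% of mock cells, and 31.4% against 64.6% at 500000 counts per cell. Its summed count was 1059 (996 to 1125) in let-7 and 4550 (4419 to 4684) in mock cells. All 10 other computations placed it past 2-fold, from -1.75 to -1.01. Of the ESC markers, 7 of 8 had a mean below mock in let-7 cells (median log2 -0.60). Over all genes, 4582 of 11178 were below mock, with a median log2 of 0.18. The markers had a summed median of 5093 against 7137, and their part in the levels above was not tested.

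For mock Dgcr8-/- against WT, which sets cells without most miRNAs beside cells that have them, 4 of the 8 genes were higher by 2-fold or more and 0 were lower. Over all genes, 32.1% were higher and 9.31% lower. The median log2 ratio was 1.15 for the 8 genes and 0.37 for all genes, with 0 of the 8 below 0, beside 4070 of all 11178 genes. Of the 8, Pim1 lay at 0.05 and fell below 0 in 6 of the 10 other computations. With the 16 WT cells, 1 cell could hold much of the sum of a gene. Without the highest cell of each condition for each gene, 6 of the 8 genes and 44.3% of all genes were higher. The median log2 ratio of all genes then rose to 0.78, since 1 of 16 WT cells is a larger part than 1 of 60 mock cells. Values without the highest cells are thus shifted upward in this comparison.

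Il6st had a mean of 17.9 in WT cells (lowest 0, median 6.84, highest 68.1), the lowest of the 4 conditions, against 97.6 in mock. The mean was 5.45-fold higher in mock (log2 2.45), and 22 of the 60 mock cells lay above the highest WT cell. It summed to 279 counts in WT cells (interval 247 to 314). The other computations gave 1.70 to 2.60, all past 2-fold. The order of Il6st, with miR-294 cells between WT and mock, rests on 1 sample per condition.

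Jak1 differed most evenly over cells. WT cells had a mean of 35.8 (lowest 0, median 28.3, highest 139) and mock cells of 157, with 29 of the 60 mock cells above the highest WT cell. The mean was 4.39-fold higher in mock (log2 2.13), and a mock cell was the higher in 85.8% of pairs, the most for any of the 9 genes in the 3 comparisons. It remained past 2-fold in 9 of 10 other computations, and FPKM gave 0.91.

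Lifr and Stat3 were within 2-fold. Lifr had a mean of 131 in WT cells (lowest 0, median 103, highest 520) and a log2 ratio of mock over WT of 0.27. Stat3 had a mean of 82.4 (0, 17.3 and 433) and a log2 ratio of 0.80, which was 0.05 with FPKM and 1.11 without the highest cell of each condition. The WT median of Stat3 lay far below its mean.

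Socs3 and Pim3 were higher in mock on sparse counts. Socs3 had a mean of 5.03 in WT cells, with counts in 4 of 16 and a highest cell of 53.9 that held 66.9% of the sum. Its log2 ratio was 1.96, and 2.97 without the highest cell of each condition. Pim3 had a mean of 6.18 in WT cells, with counts in 6 of 16 and 57.8% of the sum in the highest, and a log2 ratio of 1.49 that became 2.34 without the highest cells. The mean of log2 values put both within 2-fold, at 0.50 and 0.66.

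Pim1 had a mean of 103 in WT cells (lowest 1.18, median 95.7, highest 203) and a log2 ratio of 0.05. Its means lay between 75.6 and 106 in the 4 conditions, the narrowest range of the 9 genes relative to its level. Of the 10 other computations, 6 changed its sign against WT, with values of -0.18 to 0.11. Pim1 was thus counted in all WT, mock and miR-294 cells and in all but 1 let-7 cell. Its levels hardly separated mock cells from WT or miR-294 cells. The let-7 cells were lower within 2-fold, with a log2 ratio to mock of -0.75 to -0.39 over the other computations. A let-7 cell was the higher in 37% of pairs with a mock cell.

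Pias3 had a mean of 48.5 in WT cells that rested on 1 cell. That cell had 733 normalized counts, 94.4% of the sum, and the next had 15.0. The log2 ratio of 0.32 became 4.24 without the highest cell of each condition, and cells with a count made up 50% in WT and 68.3% in mock. Gbx2 was the only gene whose WT mean was the highest of the 4, at 12.6, with counts in 6 of 16 WT cells (37.5%, interval 15.2% to 64.6%) against 5 of 60 mock cells (8.33%, interval 2.76% to 18.4%). The highest WT cell held 76.3% of its sum, and the log2 ratio of -2.64 became -1.24 without the highest cells. Markers of mesoderm and ectoderm had a summed median of 74.3 in WT and 2.47 in mock cells, and their part in these values was not tested.

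Across the 60 mock cells the 6 genes with counts in at least 50% of cells varied with little relation to each other. Spearman's rho lay between -0.31 (Jak1 with Pias3) and 0.26 (Lifr with Jak1) over 15 pairs. Lifr and Il6st, the paired receptor chains, had a rho of -0.01. The highest rho was 0.37 in miR-294 cells (Jak1 with Stat3) and 0.29 in let-7 cells (Jak1 with Socs3). In the 16 WT cells it ranged from -0.52 (Il6st with Jak1), the farthest from 0 in any condition, to 0.34 (Stat3 with Pim1). The cells share a chip and differ in depth, with a rho between gene and total count of -0.06 to 0.21 in mock cells. In WT cells this rho was -0.29 for Il6st, 0.30 for Jak1 and 0.35 for Pias3.

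By the same measure, the gene most like each was sought among the 11178 genes in mock cells. Smg6 was most like Lifr (rho 0.54) and Pcmt1 most like Pim1 (0.54). Cfap45 came first for Jak1 (0.52), Clmp for Pias3 (0.51), Gm28791 for Il6st (0.48) and Commd1 for Stat3 (0.46). None of these 6 was another of the 9 genes, and the values are the highest of 11178 each.

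The other genes of the pathway were taken from a list of 53 ligands, receptors, JAKs and STATs, adaptors, inhibitors and targets, of which 39 passed the filter. With miR-294, 10 were lower and 3 higher by 2-fold or more than in mock, beside 20.6% and 5.77% of all genes, with a median log2 ratio of -0.01 against -0.28 for all genes. With let-7, 1 was lower and 15 higher, beside 9.2% and 18.4% of all genes, with a median of 0.65 against 0.18. In mock over WT, 7 were lower and 13 higher, beside 9.31% and 32.1% of all genes, with a median of 0.32 against 0.37. The last counts became 4 lower and 20 higher without the highest cell of each condition, beside 5.58% and 44.3% of all genes. Without the 2 cells with discordant runs they became 5 and 14, beside 9.42% and 32.7% of all genes. Of the genes called higher, Socs5 and Junb with let-7 and Jak3 with miR-294 reached a mean count of 5 only through the condition in which they were high, so that they had to differ.

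In miR-294 cells the lower genes included Jak2, a kinase related to Jak1 (mean 7.42 against 30.3 in mock, log2 -2.03), and Sos1, which couples receptors to RAS (35.9 against 106, log2 -1.56). Pias1, a relative of Pias3, was also lower (36.9 against 101, log2 -1.45), as were the STAT target Irf1 (-1.34) and Bcl3 (-2.06). The phosphatase Ptpn6 had a log2 ratio of -1.18 and the inhibitor Socs7 of -1.98. Osm, a ligand of the same family, had counts in 2 of 57 miR-294 and 21 of 60 mock cells, and 55.5% of its mock sum lay in 1 cell. The 3 higher genes were Jak3 (1.60), Socs5 (1.59) and Myc (1.19), and 78.2% of the Jak3 sum in miR-294 cells came from 1 cell.

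Of the genes higher in let-7 cells, 4 were among 12 inhibitors, 6 among 12 targets, 3 among 8 JAKs and STATs, 1 among 2 receptors and 1 among 4 adaptors. Socs2, a feedback inhibitor, had a mean of 163 against 53.3 in mock (log2 1.61), and Socs4 of 44.2 against 15.4 (1.52). Socs5 had a log2 ratio of 4.04 on a mock mean of 2.17. Among the targets, Klf5, a factor of ESC self-renewal, was at 120 against 35.5 (1.75), Pim2 at 83.7 against 23.8 (1.81), and Mcl1, which protects cells from death, at 417 against 168 (1.31). The early response genes Junb (2.44) and Fos (2.30) were higher too, and Il6ra (1.49), Jak2 (1.42), Bcl3 (1.36) and Ptpn11 (1.33) passed 2-fold. For Mcl1, a let-7 cell was the higher in 77.5% of pairs with a mock cell. That share was only 53.5% for Il6ra, 61.9% for Jak2, 56.1% for Bcl3 and 53.6% for Ptpn11. Junb and Socs5 passed the filter only through the let-7 cells, as given above, so their calls carry no weight. Pim2 thus stood past 2-fold in let-7 cells while Pim1 and Pim3 did not.

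In mock over WT, the higher genes included Bcl3 (4.57), Ptpn6 (3.95), Jak3 (3.05) and Ccnd1, a cyclin of the G1 phase (482 against 106, 2.19), followed by Irf1 (1.99). The Jak3 ratio rests on means of only 2.34 in mock and 0.28 in WT cells, and a mock cell was the higher in 54.5% of pairs. The 7 lower genes included Stat4 (-2.84), the inhibitors Cish (-2.12) and Socs4 (-2.01), and Myc (-1.92), of whose WT sum 71.5% lay in 1 cell. The cells overlapped widely for these genes. A mock cell was still the higher in 39.4% of pairs for Stat4, 43.75% for Cish, 47.9% for Socs4 and 37.8% for Myc. Osm had no count in any WT cell and stands among the 13 higher genes with no ratio given.

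**Figure D4:**
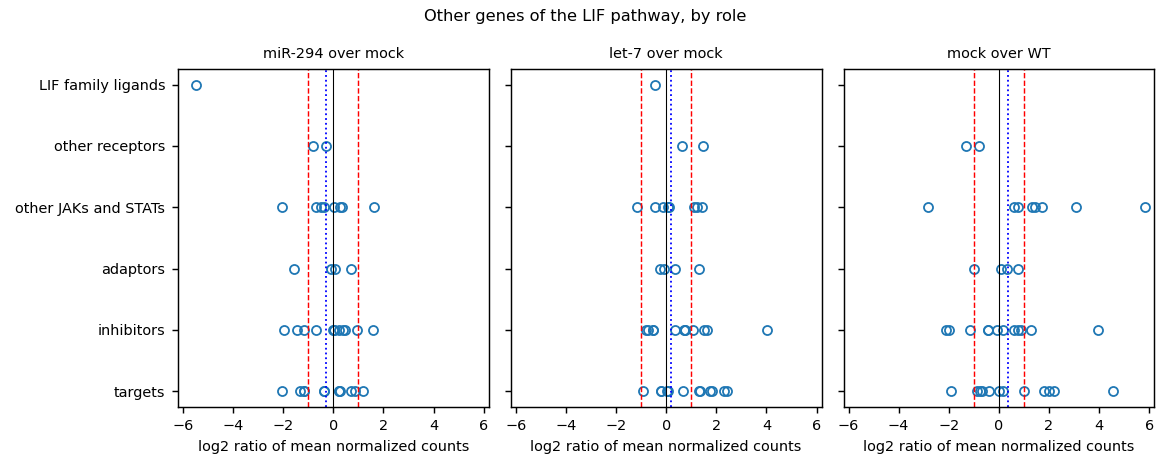
The log2 ratio of mean normalized counts for the other LIF pathway genes past the filter, 1 circle per gene, arranged by role, with miR-294 over mock at left, let-7 over mock in the middle and mock over WT at right; the blue dots mark the median of all genes and the red dashes 2-fold. With let-7, 15 of 39 genes lie past the right dashes and 1 past the left; Osm is not drawn over WT, where it had no count.

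The STAT motif TTCNNNGAA, which reads the same on both strands, was searched from 250 bases before to 50 after each RefSeq start (GRCm38.p6), since Socs3, Pim1, Pim3 and Gbx2 are held to be STAT3 targets. It was present in 8.30% of 32851 such windows, and among the 9 genes in that of Socs3 alone, 154 bases before the start. By Gencode M21 this position lies inside the Socs3 gene but in no exon. It is shown with the motif in capitals.
Socs3, chr11:117969502-117969530, minus strand: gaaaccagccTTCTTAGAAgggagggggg

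In GRCm38, Lifr lies at chr15:7090614-7197489 and Il6st at chr13:112464070-112510086, both on the plus strand. Jak1 is at chr4:101152367-101265282 and Stat3 at chr11:100885098-100939540, both on the minus strand. Of the targets and the inhibitor, Socs3 is at chr11:117966079-117970047 (minus), Pim1 at chr17:29490753-29496112 (plus), Pim3 at chr15:88862186-88865726 (plus), Gbx2 at chr1:89927956-89931179 (minus) and Pias3 at chr3:96696384-96706070 (plus). The Pim1 gene shares 1173 bases with the antisense gene Gm26885, Gbx2 shares 946 with D130058E05Rik and Stat3 shares 72 with Stat5a. These are overlaps of whole gene spans, and exons were not compared. Where exons overlap, reads of such partners cannot be told apart without strand. Gm26885 had a mean of at most 1.21 normalized counts in any condition.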

How the data were processed

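Single cells were captured on C1 circuits, 1 per condition, and libraries were made with Nextera XT. The authors assigned reads to Gencode M4 transcripts with RSEM 1.2.19 and deposited for each run an expected count (not normalized) and an FPKM (scaled for length and depth) per gene. They removed cells of low depth or diversity. They also removed mimic-transfected cells in which the listed targets were not lower, so cells were selected on those lists. Il6st is on the list for miR-294. Here the expected counts were added over the runs of each cell, then rounded. DESeq size factors were computed from 863 genes counted in every cell. Genes needed a mean count of at least 5. No test was made, as each condition is 1 sample. The fold calculation was run on simulated counts of mock and miR-294 cells, with changes larger than 2-fold set in genes of higher count. That run did not cover changes near 2-fold or genes as sparse as Socs3, Pim3 and Gbx2. All 9 genes were named; of the other pathway genes, up to 12 per comparison past 2-fold were eligible, by size of the log2 ratio. An item of that list is not reported here. The genes, the lists and the rules were chosen with earlier results of these data known. Alternatives were CPM, TMM factors (edgeR 4.0.16, R 4.3.3), the first run only, pooled cells, the mean of log2 (count + 1), FPKM, no filter, a 1.5-fold threshold and sets of cells left out. Python 3.11.15, numpy 2.4.6, scipy 1.17.1 and pandas 2.3.3 were used. Coordinates and UTRs came from Gencode M21, which is not the release of the counts.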

Additional observations from a re-analysis of the deposited data

How the results depend on the processing

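With 1 sample per condition, no spread between samples is known, and depth limits Socs3, Pim3 and Gbx2, which had counts in few cells. The number of the 8 genes lower with miR-294 (4) became 1 with CPM, 2 with TMM factors and 1 with FPKM. Of all genes, 15.7%, 16.8% and 15.5% were then lower, against 20.6%. These scalings also shifted the median of all genes from -0.28 to -0.08, -0.12 and -0.08. Without the filter on mean count, Gbx2 added 1 higher gene with miR-294 and 1 lower gene in mock over WT, beside 17.7% and 12.5% of all genes with a count. At 1.5-fold, 3 of the 8 genes were higher with let-7, beside 30.8% of all genes. Socs3 with miR-294 changed from -1.12 to 0.17 with the mean of log2 values, the only gene past 2-fold to change sign. Without the highest cell of each condition, mock over WT had 6 of the 8 genes higher, and 4 lower and 20 higher of the 39 pathway genes. Of all genes, 5.58% were then lower and 44.3% higher, with a median of 0.78. Leaving out the 3 miR-294 cells with the title MIR_294 moved Il6st to -1.63 and Pias3 to -0.99, which left 3 genes lower, beside 20.7% of all genes. Keeping the near-identical cells apart, or leaving out the 2 cells with discordant runs (chosen after the data were seen), moved none of the numbers of the 8 genes past 2-fold. The settings that change sets of cells could hardly move a comparison that holds none of those cells. Tallies over the 10 other computations are therefore not tallies of separate checks. No paired analysis was possible because the replicate numbers only name cells and no test was made. Other causes of these differences were not tested.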
